A study of Homo sapiens with 6 samples.

Results

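The MYC and MAX network is a family of transcription factors with a shared basic helix-loop-helix leucine zipper. The 10 members described here were set by name, with earlier results of these data known. They are MYC, MYCN, MYCL, MAX, MXD1, MXD4, MXI1, MNT, MGA and MLX. Each matched 1 row of the 58051 gene rows in the count table. All 10 passed the filter on low counts, as did 17561 genes in all. Cells were U2OS, an established human osteosarcoma line, in 3 libraries with a scrambled control siRNA (siSCR, "si Scramble" in the labels) and 3 with an siRNA against SURF2 (siSURF2, "si Surf2" in the labels). Both groups had 2 siRNA transfections 49 h apart and were taken at 96 h, in medium with 10% serum, and polyA RNA was sequenced. The comparison addressed how mRNA levels differ when SURF2, which the series title calls an MDM2 antagonist, is lowered. Nothing in the labels tells if the replicates came from separate cultures. P-values therefore reflect the spread among these libraries, and this spread may be technical. Values per library are given throughout in the order of replicates 1, 2 and 3.

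MYC, MYCN and MYCL bind DNA as dimers with MAX, at the E-box sequence CACGTG and related sites, and activate genes for growth, ribosome production and cell division. MXD1, MXD4, MXI1 and MNT also pair with MAX at E-boxes, but bring in SIN3 and histone deacetylases and repress. MGA, a very large protein, pairs with MAX in the polycomb complex PRC1.6. MLX resembles MAX, and its partners include MLXIP (MondoA) and MLXIPL (ChREBP), which respond to sugar. Some MXD and MNT proteins can pair with MLX as well.

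The E-box is the sequence that these factors share, so the members' own promoters were searched for it. RefSeq promoter windows (GRCh38.p14, 250 bases before to 50 after each start site) matched 9 of the 10 members with 14 windows, MYC being the member without one. CACGTG, which reads the same on both strands, occurred in 3 of the 14 windows, those of MXD4, MNT and MLX. It occurred in 7.26% of all 35116 windows, and in 9.04% of the 16169 windows of protein-coding genes tested. The 11 windows of MYCN, MYCL, MAX, MXD1, MXI1 and MGA did not hold these letters. The related CACGCG, searched on both strands, was in 1 window each of MXI1 and MGA, in 11.4% of all windows and in 16.6% of those of protein-coding genes tested. Printed next are the parts of the 3 matching windows that lie upstream of both the RefSeq and the GENCODE start, 5′ to 3′ on the gene's strand, with the E-box in capitals.
MXD4: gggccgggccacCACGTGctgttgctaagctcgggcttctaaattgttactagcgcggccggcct
MNT: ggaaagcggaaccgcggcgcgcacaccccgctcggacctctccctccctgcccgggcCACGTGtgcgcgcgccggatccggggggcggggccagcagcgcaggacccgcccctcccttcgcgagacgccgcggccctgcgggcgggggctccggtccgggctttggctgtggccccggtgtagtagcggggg
MLX: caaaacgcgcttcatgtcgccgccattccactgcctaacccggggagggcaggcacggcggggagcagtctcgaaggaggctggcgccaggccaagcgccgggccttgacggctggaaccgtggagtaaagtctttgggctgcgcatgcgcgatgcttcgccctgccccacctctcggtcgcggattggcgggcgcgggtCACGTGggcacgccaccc
The MXD4 stretch is chr4:2262295-2262359 on the minus strand, with the E-box starting 238 bases before the RefSeq start site. The MNT stretch is chr17:2401119-2401310 on the minus strand, with its E-box 193 bases before the start. The MLX stretch is chr17:42566850-42567067 on the plus strand, with its E-box 50 bases before the start. A match describes letters in a window and does not show binding.

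Counts assigned to genes ran from 17123333 to 19688089 per library, and ERCC spike-ins, added RNA standards, held 1.12% to 1.72% of all counts. SURF2 itself had 608, 669 and 630 counts in siSCR and 68, 69 and 64 in siSURF2, a normalised level 9.93-fold lower. Mitochondrially encoded genes held 2.73% of the gene counts in siSURF2 replicate 2, 4.70% and 4.74% in siSURF2 replicates 1 and 3 and 2.91% to 3.50% in siSCR. VIM and RUNX2, markers of mesenchyme and osteoblasts, were at 1964 and 22.8 CPM (read counts scaled to a common library total) in siSCR, while TWIST1 had 0 counts in every library and COL1A2 stood at 0.129 CPM. The summed level of 10 mesenchymal and osteoblast markers ran from 3309 to 3397 CPM in siSCR and from 3776 to 4111 CPM in siSURF2. That of 7 epithelial markers ran from 23.3 to 27.4 CPM in siSCR and from 44.3 to 45.4 CPM in siSURF2, and none of them was at 0 in every library. That of 7 blood and endothelial markers ran from 1.93 to 2.38 CPM and from 0.929 to 1.35 CPM, with CD3E and HBB at 0 counts. Among all genes tested, 25.8% rose and 26.2% fell. Of the tested markers, 5 of 8 mesenchymal and osteoblast ones rose (among them PRRX1 and SPARC, by 1.17 ± 0.14 and 0.47 ± 0.06 on the log2 scale) and 1 fell (ALPL, by 2.07 ± 0.25). Of 4 tested epithelial markers, CLDN4 and EPCAM rose by 1.07 ± 0.08 and 0.99 ± 0.13 and CDH1 fell by 2.70 ± 0.31, and PECAM1 was the 1 blood and endothelial marker tested, falling by 1.34 ± 0.31. None of the 15 mitochondrially encoded genes was called by edgeR, also not at an unadjusted p under 0.05 (MT-RNR2 had a log2 fold change of 0.44 ± 0.19), while DESeq2 called 1 higher and limma-voom 6, and without siSURF2 replicate 2 edgeR called all 15 higher. The part of these markers in the results on network genes was not tested.

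With siSURF2, the mRNAs of MYC, MYCL and MAX were lower and those of the repressors MXD1, MXD4, MXI1 and MNT were higher. MLX was also higher, MGA was lower, and MYCN, near the detection limit, was not called. The calls were 5 higher and 4 lower of the 10 members, with 1 not passing (edgeR's quasi-likelihood F-test, adjusted p under 0.05 by Benjamini-Hochberg over all genes tested). The background was 52.0% of all genes called, 25.8% higher and 26.2% lower, so a call by itself was common. The median log2 fold change of the members was 0.37, against 0.00 over all genes tested. This median pools members that moved in opposite directions and includes MYCN, so it does not describe a common shift of the network. It also depends on the genes listed, as of 3 further network factors 0 were called higher and 2 lower. MXD3, a repressor not among the members, was among those lower. CPM values of the groups did not overlap for 9 of the 10 members, and for 57.3% of all genes. In bulk RNA, a change in the cells that express a gene and a change in mRNA per cell cannot be told apart.

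When spike-in totals took the place of TMM library sizes, 9.26% of all genes were called. Of the members, MXD4 and MYCL then passed. The other 7 that were called with TMM factors did not pass, with adjusted p from 0.11 for MXD1 to 0.74 for MGA, but their log2 fold changes kept their direction and about their size. MYC was then at -0.30, MAX at -0.33, MGA at -0.22, MXD1 at 0.83, MXI1 at 0.58, MNT at 0.30 and MLX at 0.36.

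**Figure D1:**
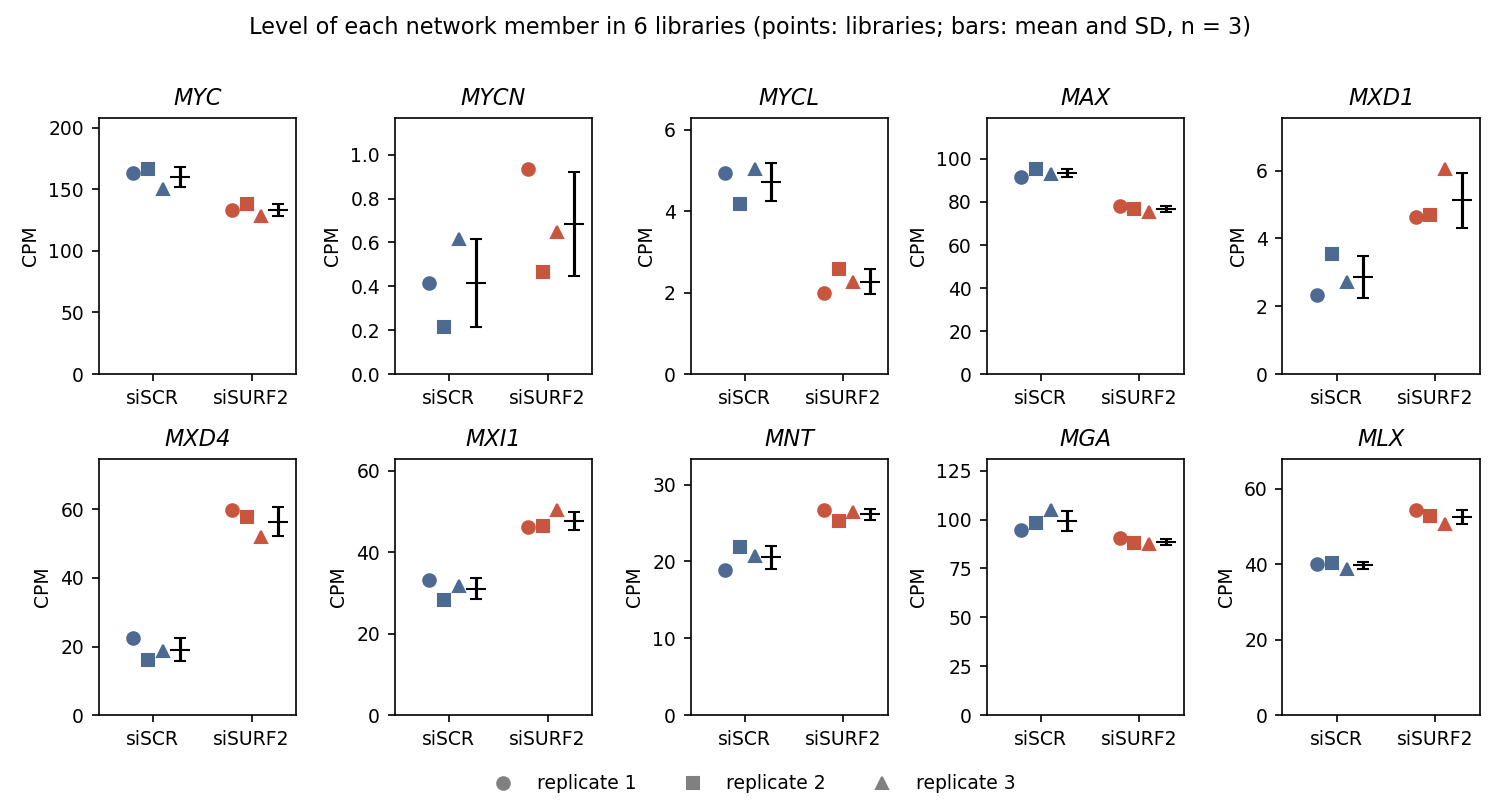
TMM-normalised level (CPM, vertical axes from 0) of the 10 members in 3 siSCR (blue) and 3 siSURF2 (red) libraries, with symbols for replicate number and black bars for mean and SD (n = 3). Points of the groups overlap for MYCN only, and MXD4 is the member with the widest gap, 22.6 CPM at most in siSCR and 51.8 CPM at least in siSURF2.

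MYC (ENSG00000136997, chromosome 8), the broadly expressed growth regulator of the family, was at 163.1, 166.3 and 150.2 CPM in siSCR and at 133.2, 138.0 and 128.4 CPM in siSURF2. Every siSURF2 library lay below every siSCR library, by less than the range within siSCR for the closest pair. Means were 159.9 ± 8.50 and 133.2 ± 4.78 CPM (SD, n = 3 each), so that siSCR was 1.20-fold above siSURF2. On the log2 scale the change was -0.26 ± 0.05 (SE, edgeR adjusted p = 1.2e-04). Among all genes tested, 53.2% had a larger absolute log2 fold change, so the decrease of MYC was of middling size in these data.

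MYCL (ENSG00000116990, chr1:39895426-39902256), known from lung cancer and dendritic cells, was expressed at a much lower level. It had 83, 78 and 98 counts in siSCR and 36, 50 and 45 in siSURF2, with no overlap. Means of 4.71 ± 0.47 and 2.27 ± 0.30 CPM (SD, n = 3 each) differ by a factor of 2.08. Its log2 fold change of -1.05 ± 0.18 (edgeR adjusted p = 2.1e-05) was the lowest among the 10 members. MYCN (ENSG00000134323, chr2:15940564-15947007), the neuroblastoma oncogene, had 7, 4 and 12 counts in siSCR and 17, 9 and 13 in siSURF2. These counts overlapped, and the log2 fold change of 0.69 ± 0.45 did not pass (adjusted p = 0.20). A difference in MYCN was not detectable at this depth.

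MAX (ENSG00000125952, chr14:65006174-65102695), the common partner, was at 91.7, 95.3 and 93.2 CPM in siSCR and at 78.0, 76.9 and 75.2 CPM in siSURF2. The libraries of each group lay close together, and the groups stood clearly apart. Means were 93.4 ± 1.84 and 76.7 ± 1.42 CPM (SD, n = 3 each). MAX thus had a log2 fold change of -0.28 ± 0.05 (edgeR adjusted p = 4.5e-05), close to that of MYC.

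MXD4 (ENSG00000123933, chr4:2247432-2262294), a MAX partner linked to differentiation and growth arrest, had the largest change of the members in either direction. It was at 22.6, 16.0 and 18.6 CPM in siSCR and at 59.8, 57.7 and 51.8 CPM in siSURF2. Each siSURF2 library was far above each siSCR library, with a gap much wider than the range within either group. Means were 19.1 ± 3.28 and 56.4 ± 4.13 CPM (SD, n = 3 each), which is 2.96-fold higher with siSURF2. The change was 1.57 ± 0.09 on the log2 scale (edgeR adjusted p = 3.5e-12), and 2.92% of genes tested had a larger absolute change. It was called under each of the 15 alternative settings, with log2 fold changes from 1.47 to 1.69.

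MXI1 (ENSG00000119950, chr10:110207605-110287365), also called MXD2, was at 33.1, 28.2 and 31.8 CPM in siSCR and at 46.2, 46.5 and 50.4 CPM in siSURF2. The groups did not overlap, and siSURF2 was 1.54-fold higher (log2 fold change 0.62 ± 0.07, edgeR adjusted p = 1.4e-08). MXD1 (ENSG00000059728, chr2:69897688-69942945), induced when many cell types stop dividing and differentiate, was a low transcript with 39, 66 and 53 counts in siSCR and 84, 91 and 121 in siSURF2. In CPM it was at 2.86 ± 0.62 and 5.12 ± 0.80 (SD, n = 3 each). Its log2 fold change was 0.84 ± 0.18 (adjusted p = 3.3e-04), with a larger standard error than that of MXI1.

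MNT (ENSG00000070444, chr17:2384060-2401118), a repressor made in dividing and resting cells alike, had a smaller increase. It was at 18.9, 21.9 and 20.7 CPM in siSCR and at 26.7, 25.3 and 26.4 CPM in siSURF2. The groups did not overlap, and the siSURF2 libraries were the closer to each other. Its log2 fold change was 0.35 ± 0.08 (adjusted p = 4.7e-04), and 42.5% of genes tested changed more in absolute size.

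MLX (ENSG00000108788, chr17:42567068-42573239), the MAX-like hub of the sugar-responsive branch, was at 40.0, 40.3 and 38.7 CPM in siSCR and at 54.3, 52.6 and 50.6 CPM in siSURF2. Every siSURF2 library was above every siSCR library. MLX had a log2 fold change of 0.40 ± 0.06 (adjusted p = 2.5e-06), opposite in sign to that of MAX. MLX shares 770 exonic bases with PSMC3IP on the other strand, and the sources used here do not give whether counting used strand, so reads from that stretch are uncertain. PSMC3IP had 433, 467 and 438 counts in siSCR and 281, 261 and 322 in siSURF2, a difference in the other direction from MLX.

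MGA (ENSG00000174197, chr15:41621224-41773081) was at 94.4, 98.3 and 104.8 CPM in siSCR and at 90.4, 87.9 and 87.3 CPM in siSURF2. The groups did not overlap, but the highest siSURF2 and the lowest siSCR library were closer to each other than the lowest and the highest siSCR library. MGA had a log2 fold change of -0.16 ± 0.05 (adjusted p = 0.012), the smallest in absolute size among the members. With upper-quartile factors it was -0.12 and did not pass (adjusted p = 0.062, within a range of 0.0036 to 0.74 over all settings).

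**Figure D2:**
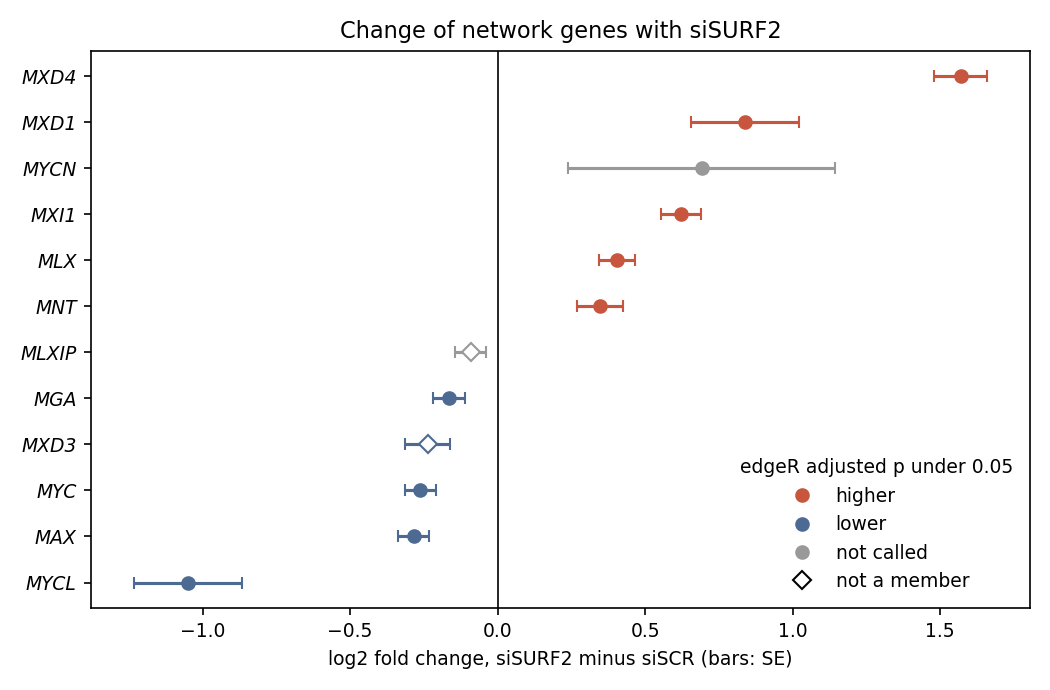
Log2 fold change (siSURF2 minus siSCR, horizontal axis) with its standard error for the 10 members (filled circles) and the further factors MXD3 and MLXIP (open diamonds), coloured by call. MXD4 stands at 1.57 and MYCL at -1.05, while MYC, MAX and MGA lie between -0.28 and -0.16.

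Of the 3 remaining factors of the network, 2 fell and 1 was not called. MXD3, a further MXD repressor, which is linked to dividing cells, was at 25.1 ± 0.83 CPM in siSCR and 21.3 ± 1.19 CPM in siSURF2 (SD, n = 3 each). Its log2 fold change was -0.24 ± 0.08 (edgeR adjusted p = 0.011), so the MXD genes did not all rise. Without siSURF2 replicate 1 it did not pass (adjusted p = 0.092, within a range of 0.0072 to 0.67), and it shares exons with RAB24 and PRELID1. RAB24, on the same strand, shares 926 of the 5154 exonic bases of MXD3. RAB24 had 122, 148 and 138 counts in siSCR and 120, 118 and 145 in siSURF2, with overlap. PRELID1, on the other strand, covers 1158 of the 5154 bases. It had 2764, 2917 and 2557 counts in siSCR and 2033, 2230 and 2043 in siSURF2, the same direction as MXD3. The part of such reads in the MXD3 decrease was not tested. MLXIP, the partner that MLX has in most tissues, had a log2 fold change of -0.09 ± 0.05 and was not called (adjusted p = 0.16), although it passed without siSCR replicate 3 (adjusted p = 0.023, within a range up to 0.87). MLXIPL, chiefly a liver and fat gene, had 15, 12 and 14 counts in siSCR and 0, 6 and 3 in siSURF2. It was called lower (adjusted p = 0.0016), but with so few counts its fold change depends on edgeR's prior count and is not given.

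Besides MLX, which shares 770 of its 4259 exonic bases with PSMC3IP, other members also share exons. MXD4 shares 80 of its 7058 exonic bases with the microRNA gene MIR4800 on the same strand, for which no counts were given. MYCN, MYCL, MAX, MXI1, MNT and MGA share exonic bases with noncoding genes on the other strand that had at most 7 counts in any library. The longest of these stretches is that of MNT, 1065 of its 8728 exonic bases. How reads in shared stretches were counted is not given, so low counts of the other gene do not show that sharing had little effect. MXD1 shares 237 of its 6351 exonic bases with SNRNP27 on the same strand, which had 629 to 800 counts per library. Because MXD1 itself had only 39 to 121 counts, its level is the less certain.

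To compare genes, counts were divided by exon length and scaled to TPM, so that a library's values share 1 total. In siSCR the order was MYC (189.0 ± 7.10 TPM, SD, n = 3), MAX (74.9 ± 2.09), MLX (33.1 ± 0.28), MXI1 (23.9 ± 2.01), MGA (20.0 ± 1.42), MXD4 (9.59 ± 1.59), MNT (8.35 ± 0.68), MYCL (3.31 ± 0.36), MXD1 (1.597 ± 0.342) and MYCN (0.570 ± 0.284), all levels in TPM. MXD4 and MNT overlapped in their ranges, 8.02 to 11.2 and 7.57 to 8.86 TPM, and no other neighbours in this order did. In siSURF2 no neighbours overlapped, and 2 pairs had changed places. MXD4, at 28.2 ± 2.36 TPM, stood above MGA, at 17.7 ± 0.54 TPM, and MXD1, at 2.84 ± 0.42 TPM, stood above MYCL, at 1.59 ± 0.27 TPM. MYC remained the most abundant member with siSURF2, at 156.6 ± 10.5 TPM. Exon length here is the union over all annotated transcripts, so a gene with long, unused exons is set too low.

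**Figure D3:**
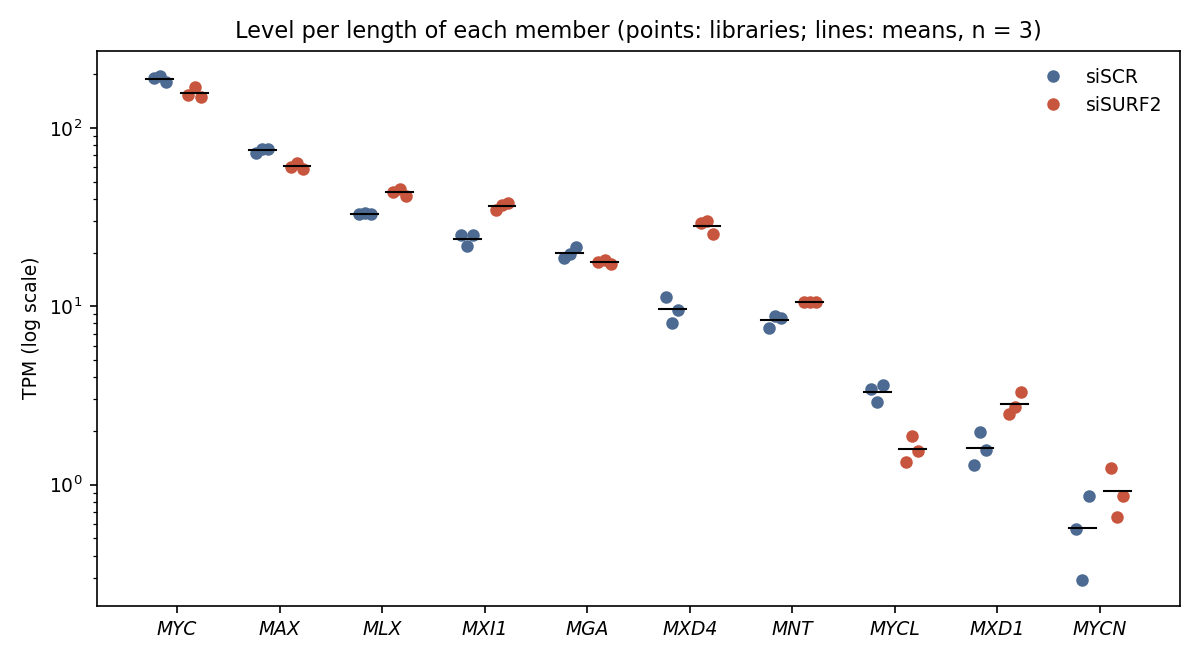
Level per length (TPM, log axis) of each member, ordered by the siSCR mean, with points for libraries (siSCR blue, siSURF2 red) and black lines for means of 3. MYC is highest in both groups (189.0 and 156.6 TPM), and MXD4 moves from 9.59 to 28.2 TPM, past MGA.

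MYC and MAX fell in near proportion. The ratio of MYC to MAX, in TPM within a library, was 2.63, 2.58 and 2.38 in siSCR and 2.52, 2.65 and 2.52 in siSURF2. The groups overlapped, with means of 2.53 ± 0.13 and 2.56 ± 0.07 (SD, n = 3 each). The MAX-binding repressors MXD1, MXD4, MXI1 and MNT summed to 45.2, 40.5 and 44.7 TPM in siSCR and to 76.6, 80.3 and 77.3 TPM in siSURF2. The repressor MXD3, which fell, is left out of this sum, as it was not set as a member. Its mean was 17.3 TPM in siSCR, above those of MXD4, MNT and MXD1, and 14.6 TPM in siSURF2. These MXD3 levels are uncertain because of the exons it shares with RAB24 and PRELID1. Ratios that include MXD3 were not computed. Set against MYC, the sum without MXD3 was 0.238, 0.207 and 0.247 in siSCR and 0.502, 0.477 and 0.520 in siSURF2. The groups lay well apart, with means of 0.2305 ± 0.0208 and 0.500 ± 0.022. Whether the sum lay below MYC in siSURF2 depended on the scale, as without division by exon length (CPM) the ratio had a mean of 1.02 ± 0.04 there, above 1 in all siSURF2 libraries but replicate 2 (0.973), and of 0.461 ± 0.037 in siSCR (SD, n = 3 each). Against MAX, a ratio chosen after the values were seen, the sum was 0.581 ± 0.046 in siSCR and 1.28 ± 0.03 in siSURF2. MLX against MAX, also chosen after the values were seen, was 0.442 ± 0.012 and 0.711 ± 0.012. These ratios combine members already described and carry no test of their own. They concern mRNA, and protein was not measured.

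**Figure D4:**
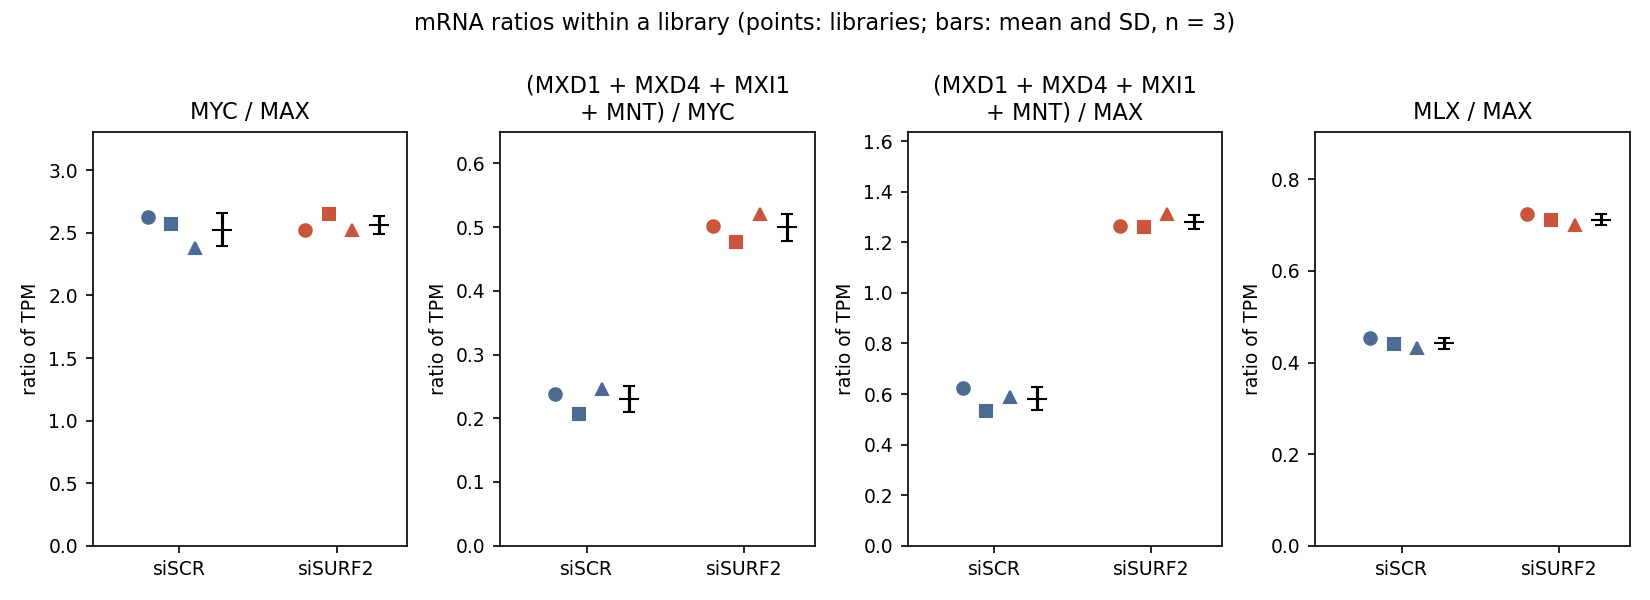
Ratios of TPM within each library (vertical axes from 0) for MYC to MAX, the summed MXD1, MXD4, MXI1 and MNT to MYC and to MAX, and MLX to MAX, with symbols for replicates 1, 2 and 3 as circle, square and triangle and black bars for mean and SD (n = 3). The MYC to MAX ratio overlaps between groups (2.38 to 2.63 and 2.52 to 2.65), while the other 3 ratios do not. The sum leaves out the repressor MXD3, which was lower with siSURF2.

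Genes with the closest pattern over the 6 libraries were sought among 10243 protein-coding genes, by Euclidean distance of log2 CPM centred on each gene's mean. For MYC these were CCDC152, YJU2 and MCMBP, at distances of 0.032, 0.040 and 0.041 and with log2 fold changes of -0.25, -0.24 and -0.25. CCDC152 overlaps SELENOP on the other strand, so its counts are uncertain. For MAX they were BIN1, HBS1L and GART, at 0.040, 0.042 and 0.048. For MXD4 they were ZNF385A, BDH2 and ZNF362, at 0.191, 0.204 and 0.215 and with log2 fold changes of 1.49, 1.65 and 1.56. For MYCL they were KLK6, PARVA and ELFN1, at 0.205, 0.229 and 0.240. With 2 groups and 6 libraries, such a distance mainly compares fold changes.

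Genes that MYC is known to induce were mostly lower alongside MYC and MAX. Of 41 measured, 35 fell, none rose and 6 did not pass, with a median log2 fold change of -0.29, beside 26.2% of all genes lower and a median of 0.00. DESeq2, limma-voom and edgeR's unadjusted p under 0.05 also gave 0 higher. The list was drawn up with earlier results of these data known, so these counts are a description only. RCC1, a nucleotide exchange factor for Ran, fell from 181.7 ± 5.42 to 76.2 ± 4.69 CPM (SD, n = 3 each), and PA2G4, a growth-related RNA-binding protein, fell by 0.70 ± 0.05 on the log2 scale. Of 11 tested genes known to be repressed by MYC, 4 rose and 5 fell (25.8% and 26.2% of all genes), with a median of 0.04. FTH1, ferritin heavy chain, and CDKN1A, the inhibitor p21, rose by 0.88 ± 0.05 and 0.68 ± 0.06, while PDGFRB, a growth factor receptor, and NDRG1, a stress-response gene, fell by 1.80 ± 0.06 and by 0.87 ± 0.05. The 5 lower calls became 3 without siSCR replicate 2 or without siSURF2 replicate 1, and with upper-quartile or no factors.

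Genes that act with the MAX-binding repressors and with MGA are read against the background of 25.8% of all genes higher and 26.2% lower. Of 13 SIN3 and NCOR corepressor genes, 1 rose, 5 fell and 7 did not pass, with a median log2 fold change of -0.11. The share called in either direction was near that of all genes (52.0%), with a larger part lower and a smaller part higher than the background. SIN3A, a scaffold that MXD proteins bind, fell by 0.50 ± 0.05 on the log2 scale, and SUDS3, a subunit of the same complex, by 0.63 ± 0.06. The related scaffold SIN3B rose by 0.18 ± 0.06 (edgeR adjusted p = 0.015), but did not pass without siSCR replicate 3 or without siSURF2 replicate 1 (adjusted p = 0.063 and 0.080, within a range of 0.0030 to 0.85). Of 10 partners of MGA in PRC1.6, 1 rose, 5 fell and 4 did not pass (median -0.13). Here too the share called in either direction was near the background, with a larger part lower and a smaller part higher. PCGF6, the defining subunit of that complex, fell by 0.62 ± 0.06, CBX3, a heterochromatin protein, fell by 0.33 ± 0.05, and TFDP1, a partner of E2F6, rose by 0.35 ± 0.05. Of 9 germline genes known as MGA targets, 3 were tested, at low counts. STAG3, a meiotic cohesin subunit, rose (log2 fold change 0.59 ± 0.17), but not without siSURF2 replicate 3 (adjusted p = 0.077, within a range up to 0.30), and STK31 fell, with 38, 50 and 50 counts in siSCR and 11, 6 and 0 in siSURF2. The size of its change is uncertain at these counts, with log2 fold changes of -3.96 without siSURF2 replicate 1 and -2.45 without siSURF2 replicate 3. SYCE2 was called lower (-0.97 ± 0.32), but not without siSCR replicate 2 or siSURF2 replicate 2 (adjusted p = 0.084 and 0.081, within a range up to 0.16).

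Of 6 tested genes known as targets of MLX with MondoA or ChREBP, 4 rose and 1 fell, with a median log2 fold change of 0.45, where 25.8% of all genes rose and 26.2% fell. TKT, of the pentose phosphate pathway, and KLF10, a transcription factor, rose by 0.44 ± 0.05 and 0.42 ± 0.05, and HK2, a hexokinase, fell by 0.35 ± 0.07 on the log2 scale. TXNIP, an inhibitor of glucose uptake named here after its values were seen, had 33, 34 and 48 counts in siSCR and 74, 87 and 94 in siSURF2 (log2 fold change 1.08 ± 0.19, edgeR adjusted p = 2.3e-05).

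Regulators of MYC itself moved both ways, with 25.8% of all genes higher and 26.2% lower as background. Of 13 genes that act on MYC transcription or mRNA, 2 rose and 9 fell (median log2 fold change -0.28). CNBP and FUBP1, proteins that bind single-stranded DNA near the MYC promoter, fell from 335.7 ± 9.54 to 197.3 ± 7.42 CPM and from 205.2 ± 6.88 to 126.7 ± 0.58 CPM (SD, n = 3 each). ELAVL1, the RNA-binding protein HuR, and TCF7L2, a WNT effector, rose by 0.60 ± 0.06 and 0.28 ± 0.08 on the log2 scale. Of 14 genes of MYC protein turnover, 2 rose and 7 fell (median -0.12). FBXW7, the ubiquitin ligase subunit that recognises phosphorylated MYC, rose from 19.5 ± 1.76 to 27.6 ± 1.22 CPM, and HUWE1, another ligase, rose by 0.16 ± 0.05 on the log2 scale. USP28, which removes ubiquitin from MYC, and SKP2, a further ligase subunit, fell by 0.61 ± 0.06 and by 0.69 ± 0.05. Of 15 genes for coactivators and the MYC partner MIZ1 (ZBTB17), 2 rose, 4 fell and 9 did not pass (median -0.05), a lower share near that of all genes and a share called below it. TRRAP, a scaffold of acetyltransferase complexes, and ZBTB17 rose by 0.24 ± 0.05 and 0.23 ± 0.07, while RUVBL2, a helicase of such complexes, and KAT5, an acetyltransferase, fell by 0.47 ± 0.06 and by 0.36 ± 0.06. Without siSCR replicate 3, ZBTB17 did not pass (edgeR adjusted p = 0.063, within a range of 0.0018 to 0.77).

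Spike-in library sizes ended most calls among these associated genes, with the direction of every named gene kept. Fold changes stayed near their size for SKP2 (log2 -0.74 against -0.69 with TMM factors), FUBP1 (-0.74 against -0.70), SIN3A (-0.55 against -0.50) and CDKN1A (0.65 against 0.68), which were among the calls lost. The spike-in sizes left 4 of the MYC-induced genes lower, 1 of the MYC-repressed genes higher and 2 lower, 2 of the genes of MYC transcription or mRNA lower, 1 MLX target higher and 1 MGA target lower. No gene of the corepressor, PRC1.6, coactivator or turnover lists was then called. Of the genes named from these lists, RCC1, PA2G4, FTH1, PDGFRB, NDRG1, CNBP, STK31 and TXNIP were called under that setting.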

How the data were processed

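PolyA RNA of 6 U2OS libraries (3 siSCR, 3 siSURF2) was analysed. The counts used are those the authors deposited, whole numbers of reads for each gene that had not been normalised. Genome build GRCh38 and the tools fastp 0.23.1 and STAR 2.5.2b are named per the submitters' processing notes. No counter, annotation or strand option is given in the sources used here. Columns were matched to samples by name. A gene name table gave 56948 symbols and GENCODE 29 another 499, and 604 identifiers had none. The 92 spike-in rows entered neither library sizes nor tests. In R 4.3.3, edgeR 4.0.16 was run with filterByExpr (minimum count 10, total 15), TMM factors and the robust quasi-likelihood F-test with 1 group term, and p-values were adjusted over 17561 genes. Each SE is the unshrunken log2 fold change over the root of F. Alternatives were other scalings and filters, DESeq2 1.42.0, limma-voom (limma 3.58.1), a replicate block and leaving out each library. The program was tested on simulated data. Depth limits MYCN, with 4 to 17 counts per library, and MLXIPL, with 0 to 15. Members and lists were chosen with earlier results of these data known. The text names all 10 members, 3 further network factors, SURF2, the 3 nearest genes of 4 members and from each list at most 2 genes in each direction, those with the lowest adjusted p (a single gene if no member passed). TXNIP and the markers VIM, RUNX2, TWIST1, COL1A2, CD3E and HBB fall outside this rule and were chosen after their values were seen.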

Additional observations from a re-analysis of the deposited data

How the results depend on the processing

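Over 15 alternatives, all 10 members kept their direction wherever they were tested (MYCN was not tested with the filter of 1 CPM in 3 libraries). Of 149 recomputed member values, 141 kept their side of the threshold and 8 lost the call, 7 of them with spike-in library sizes and 1 (MGA) with upper-quartile factors. Spike-in library sizes gave 802 genes higher and 825 lower, against 4535 and 4596 with TMM factors, and 1 member higher and 1 lower, against 5 and 4. The spike-in share differed within groups, from 1.12% to 1.72% in siSCR. Leaving out 1 library gave 4082 to 4292 genes higher and 3878 to 4574 lower, and 5 members higher and 4 lower each time, also without siSURF2 replicate 2, where all 15 mitochondrially encoded genes were called higher. Ratios of CPM in place of TPM gave 1.71 and 1.74 for MYC to MAX in siSCR and siSURF2, 0.461 and 1.02 for the summed repressors to MYC, 0.788 and 1.76 for the summed repressors to MAX, and 0.425 and 0.684 for MLX to MAX, since exon length then does not enter. Other scalings do not act on ratios within a library. Equal replicate numbers did not pair the samples: the correlation of their deviations ran from -0.092 to 0.0035, and 0 of 6 libraries correlated best with its own number. With the replicate number as a block, 4478 genes were higher and 4550 lower, and 5 members higher and 4 lower. Among the associated lists, upper-quartile factors gave 2 SIN3 and NCOR genes and 2 PRC1.6 partners higher, against 1 each.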
